A study of Homo sapiens with 16 samples.

Results

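This report describes 69 protein-coding genes for cytosolic heat shock proteins and J-domain cochaperones among the 58735 genes counted in SW620, an established human colorectal cancer cell line. They were chosen by symbol, with earlier results of these data known. Taken were the HSP90 genes HSP90AA1 and HSP90AB1, the HSPA (HSP70) and HSPB (small heat shock protein) series, HSPD1, HSPE1 and HSPH1. The transcription factor HSF1 and every gene of the DNAJA, DNAJB and DNAJC series were taken as well. Left out were 5 chaperones of the endoplasmic reticulum (ER), HSPA5, DNAJB9, DNAJB11, DNAJC3 and DNAJC10. The set is wider than its name. It also takes in chaperones of the mitochondrion, such as HSPA9, HSPD1, HSPE1, DNAJA3 and DNAJC19, and J-domain proteins of the ER membrane, such as DNAJC1, DNAJB12 and DNAJB14. One symbol, HSPA14, stands for 2 entries with separate identifiers, ENSG00000187522 and ENSG00000284024, which were kept apart.

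The study asked what ATF4, which drives transcription in the integrated stress response, contributes when colorectal cancer cells meet chemotherapy. SW620 cells carried a short hairpin RNA against ATF4 (shATF4) or a scrambled hairpin, and RNA of each line was sequenced without drug and with 5 µM 5-fluorouracil (5-FU) for 24 h or 48 h. This drug inhibits thymidylate synthase and is misincorporated into nucleic acids. Libraries numbered 3 untreated, 3 for 24 h and 2 for 48 h in shATF4 cells, and the same in scramble cells. The labels name a single hairpin line against ATF4 and a single control line, so an effect of ATF4 cannot be told apart from an off-target effect of the hairpin or from a difference between the lines. No time is given for the untreated cells, so the drug cannot be told apart from time in culture. The 4 libraries titled as 48 h carry a treatment tag of 24 h and were placed at 48 h by their titles and the text of the series. Nothing says that replicates were separate cultures, and p-values then measure only the spread between these libraries, which may be technical.

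Heat shock proteins keep other proteins folded. HSP70 binds exposed stretches of unfolded chains and releases them through cycles of ATP hydrolysis, J-domain proteins deliver clients and start the hydrolysis, nucleotide exchange factors such as the HSP110 proteins reset it, and HSP90 takes over clients such as kinases and steroid receptors for their last steps. HSF1 drives the inducible members when unfolded proteins accumulate, by binding inverted repeats of the unit GAA in their promoters. Tumour cells of the colon, like those of many tissues, rely on these chaperones to keep oncogenic kinases and other unstable clients folded.

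Total counts ran from 14571611 to 17824188 per library. ATF4 was lower in shATF4 than in scramble cells in each of the 3 states, with log2 changes of -1.13 ± 0.09, -1.34 ± 0.09 and -1.52 ± 0.11 untreated, at 24 h and at 48 h. In each line 1 library was taken to stand apart. In shATF4 cells it was 24 h replicate 3, for its signal recognition particle RNA (0.0713% of counts, against 0.0224% and 0.0241% in its group). In scramble cells it was untreated replicate 2, for mitochondrial coding RNA (1.42%, against 0.753% and 0.766%). Scramble untreated replicate 1 was also high in signal recognition particle RNA (0.0161%, against 0.00368% and 0.0031%), and was left out only by itself. All 3 shATF4 24 h libraries held more of this RNA than any other library. Its part in the comparisons of that group was not tested. All 8 colon epithelial markers were detected in every group, at summed levels from 6497 to 12465 CPM (counts scaled to library size), lowest at 48 h in both lines. The 5 fibroblast markers were nearly all LUM and COL1A1, with COL3A1 at 0 and COL1A2 and DCN at no more than 0.164 and 0.0586 CPM. They summed to 35.3 to 37.3 CPM untreated, 50.5 to 53.8 CPM at 24 h and 51 to 58.3 CPM at 48 h in shATF4 cells. In scramble cells they summed to 33.1 to 43, 47.8 to 52.8 and 44.9 to 46.5 CPM. The 4 leukocyte markers summed to at most 0.352 CPM in any library. The 2 endothelial markers, nearly all PECAM1, summed to 2.07 to 2.66 CPM untreated, 4.11 to 6.11 CPM at 24 h and 2.74 to 3.44 CPM at 48 h in shATF4 cells, and to 1.2 to 2.14, 3.85 to 4.58 and 4.31 to 4.87 CPM in scramble cells. The part of these markers in the results was not tested.

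Of the 69 genes 59 passed the filter on low counts. The other 10 held few or no reads, HSPB6 the most: the small heat shock proteins HSPB2, HSPB3, HSPB6, HSPB7 and HSPB8, known best from muscle, the testis genes HSPB9, DNAJB7 and DNAJB8, the read-through gene DNAJC25-GNG10 and DNAJC5B. Levels between genes were compared in FPKM, the authors' value scaled to gene length and depth, averaged over the 16 libraries. HSP90AB1 stood first at 835 FPKM, before HSP90AA1 at 496, the constitutive HSP70 gene HSPA8 at 389, the mitochondrial chaperonin HSPD1 at 292, DNAJA1 at 147 and HSPB1 at 146. DNAJA1 and HSPB1 trade places between libraries and do not differ beyond their spread. Stress-inducible HSPA1A, at 18.2 FPKM, and HSPA1B, at 13.4, were far below HSPA8. The pair of HSP90 genes held 39.2% of all reads on the 69 genes, and the top 4 genes held 63.1%.

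Reads on the 69 genes took a smaller share of the library after 5-FU in both lines. In shATF4 cells the mean share was 1.52% untreated, 1.18% at 24 h and 1.11% at 48 h. In scramble cells it was 1.54%, 1.19% and 1.05%. These are shares of bulk RNA, in which fewer cells expressing a gene and less of its RNA per cell cannot be told apart.

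Calls below are genes at an adjusted p under 0.05, from edgeR's quasi-likelihood F test, adjusted by Benjamini-Hochberg over 17309 genes. Values after ± are standard errors of log2 fold changes, and levels per library are CPM. Libraries that do not overlap are common over all genes. Against untreated, 50.1% of genes did not overlap at 24 h and 73% at 48 h in shATF4 cells, and 52.9% and 73.1% in scramble cells. For 48 h against 24 h the shares were 62% and 65.5%. Between the lines they were 19.3% untreated, 34.8% at 24 h and 55.8% at 48 h. In shATF4 cells 9 members were higher and 16 lower at 24 h, and 18 were higher and 27 lower at 48 h. Over all genes tested 23.2% were higher and 21.2% lower at 24 h, and 29.6% and 28.7% at 48 h. In scramble cells 11 members were higher and 20 lower at 24 h, and 15 were higher and 30 lower at 48 h. The background there was 21.8% higher and 22.2% lower at 24 h, and 30.6% and 30% at 48 h. With 59 members tested, the lower calls came to 27.1% and 45.8% in shATF4 cells and to 33.9% and 50.8% in scramble cells. All were above the background over all genes, and the higher calls lay near or under it. Over all genes, too, the share lower rose with expression level, as given by class of level below. The member shares here are not adjusted for level. HSPA6, DNAJB13 and DNAJC5G passed the filter only through libraries at 48 h, so their higher calls at that time, which stand in these counts, are a description and no support. The median log2 change over the members was -0.03 and -0.13 in shATF4 cells and -0.13 and -0.29 in scramble cells, against medians of 0.03, 0.03, -0.01 and 0.03 over all genes.

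**Figure D1:**
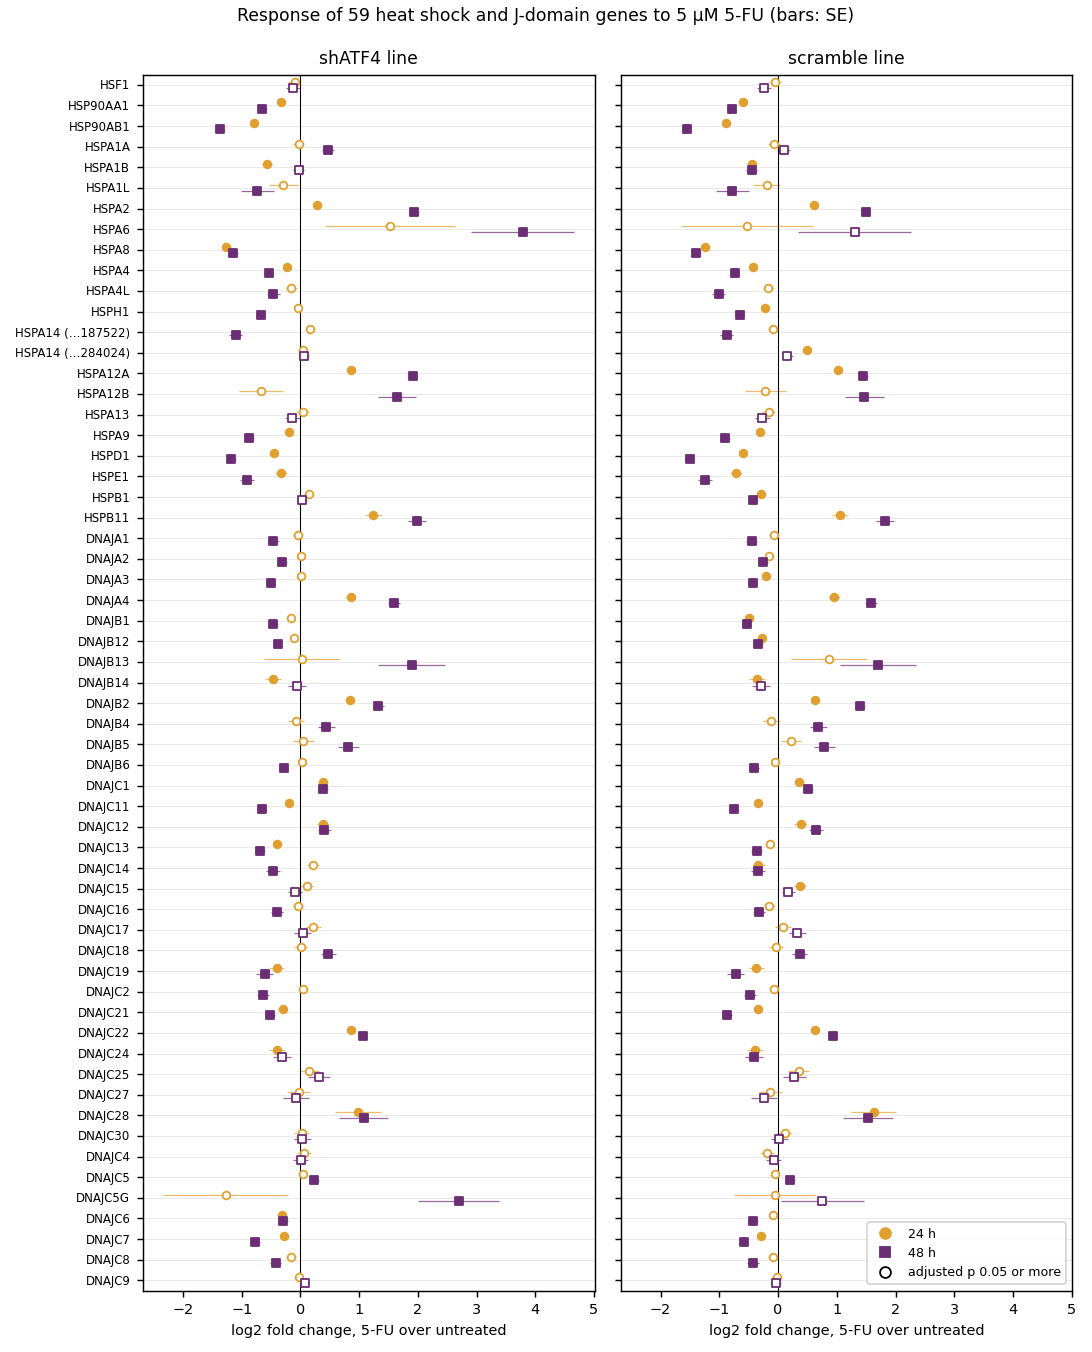
Log2 fold change of the 59 members that passed the filter, 5-FU over untreated, in shATF4 cells (left) and scramble cells (right), at 24 h (circles) and 48 h (squares), with standard errors as bars and open symbols where the adjusted p was 0.05 or more. HSP90, HSPA8 and the mitochondrial chaperones lie left of 0 in both lines, while HSPA2, HSPA12A, HSPB11, DNAJA4 and DNAJB2 lie right of it.

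The calls of both lines, each set against its own untreated libraries, were compared. At 24 h 23 members were called in both lines, which is 92% of the 25 called in shATF4 cells and 74.2% of the 31 called in scramble cells, where the shares over all genes called were 68% and 68.6%. At 48 h 42 were called in both, 93.3% of the 45 called in each line, against 83.5% of all genes called in shATF4 cells and 80.3% of those called in scramble cells. No member was higher in 1 line and lower in the other. Over all genes this was rare as well, with 39 at each time beside 5224 at 24 h and 8435 at 48 h called in the same direction. Over the 4 responses, 11 members were lower in each (HSP90AA1, HSP90AB1, HSPA8, HSPA4, HSPA9, HSPD1, HSPE1, DNAJC7, DNAJC11, DNAJC19 and DNAJC21) and 9 were higher in each (HSPA2, HSPA12A, HSPB11, DNAJA4, DNAJB2, DNAJC1, DNAJC12, DNAJC22 and DNAJC28). The responses at 24 h and 48 h share the untreated libraries of their line. A group of 8 was called in none: HSF1, HSPA13, DNAJC4, DNAJC9, DNAJC17, DNAJC25, DNAJC27 and DNAJC30. No share over all genes was computed for these counts over the 4 responses, so they describe the members and are not set against a background.

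HSF1, the master regulator of the heat shock response, did not pass the test in any of the 4 responses. HSF1 had 134, 140.4 and 139 CPM untreated, 146, 141 and 99.3 CPM at 24 h and 118 and 133 CPM at 48 h in shATF4 cells. HSF1 in scramble cells had 141, 152 and 128 CPM untreated, 133, 148 and 125 CPM at 24 h and 119.5 and 118 CPM at 48 h. The libraries at 24 h overlapped the untreated ones in both lines, and those at 48 h lay a little below the untreated ones in both. Its log2 change at 48 h was -0.13 ± 0.12 in shATF4 cells (adjusted p = 0.35) and -0.24 ± 0.12 in scramble cells (adjusted p = 0.0868). At 24 h in shATF4 cells, replicate 3, which stood apart, held the lowest level of all 16 libraries.

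Both cytosolic HSP90 genes fell, the constitutive form HSP90AB1 (chr6:44246166-44253888) more than the stress-inducible form HSP90AA1 (chr14:102080738-102139699). HSP90AB1 had 3601, 3425 and 3504 CPM untreated, 1919.5, 2029 and 2105 CPM at 24 h and 1396 and 1333 CPM at 48 h in shATF4 cells. HSP90AB1 in scramble cells had 3899.6, 4005 and 4016 CPM untreated, 2114, 2118 and 2183 CPM at 24 h and 1357 and 1344 CPM at 48 h. The 3 states did not overlap in either line, and the level stepped down with time. The fall at 48 h was 2.57-fold in shATF4 cells (log2 change -1.36 ± 0.06, adjusted p = 1.53e-13) and 2.94-fold in scramble cells (-1.56 ± 0.06, adjusted p = 1.81e-14).

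HSP90AA1 had 3400.03, 3184 and 3169 CPM untreated, 2535, 2527 and 2708 CPM at 24 h and 2160.3 and 1985 CPM at 48 h in shATF4 cells. HSP90AA1 in scramble cells had 3362, 3013 and 3623 CPM untreated, 2223, 2160.1 and 2259 CPM at 24 h and 2012 and 1859 CPM at 48 h. HSP90AA1 was also lower at each time with no overlap between states within a line. Its log2 changes were smaller, -0.33 ± 0.06 and -0.65 ± 0.07 at 24 h and 48 h in shATF4 cells and -0.59 ± 0.06 and -0.78 ± 0.07 in scramble cells. Within a library the balance of the pair therefore moved. HSP90AB1 had 1.06, 1.08 and 1.11 counts per HSP90AA1 count in the untreated shATF4 libraries, 0.757, 0.803 and 0.777 at 24 h and 0.646 and 0.671 at 48 h. In scramble cells the ratio was 1.16, 1.33 and 1.11 untreated, 0.951, 0.98 and 0.966 at 24 h and 0.674 and 0.723 at 48 h. Every treated library had a lower ratio than every untreated library of its line.

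**Figure D2:**
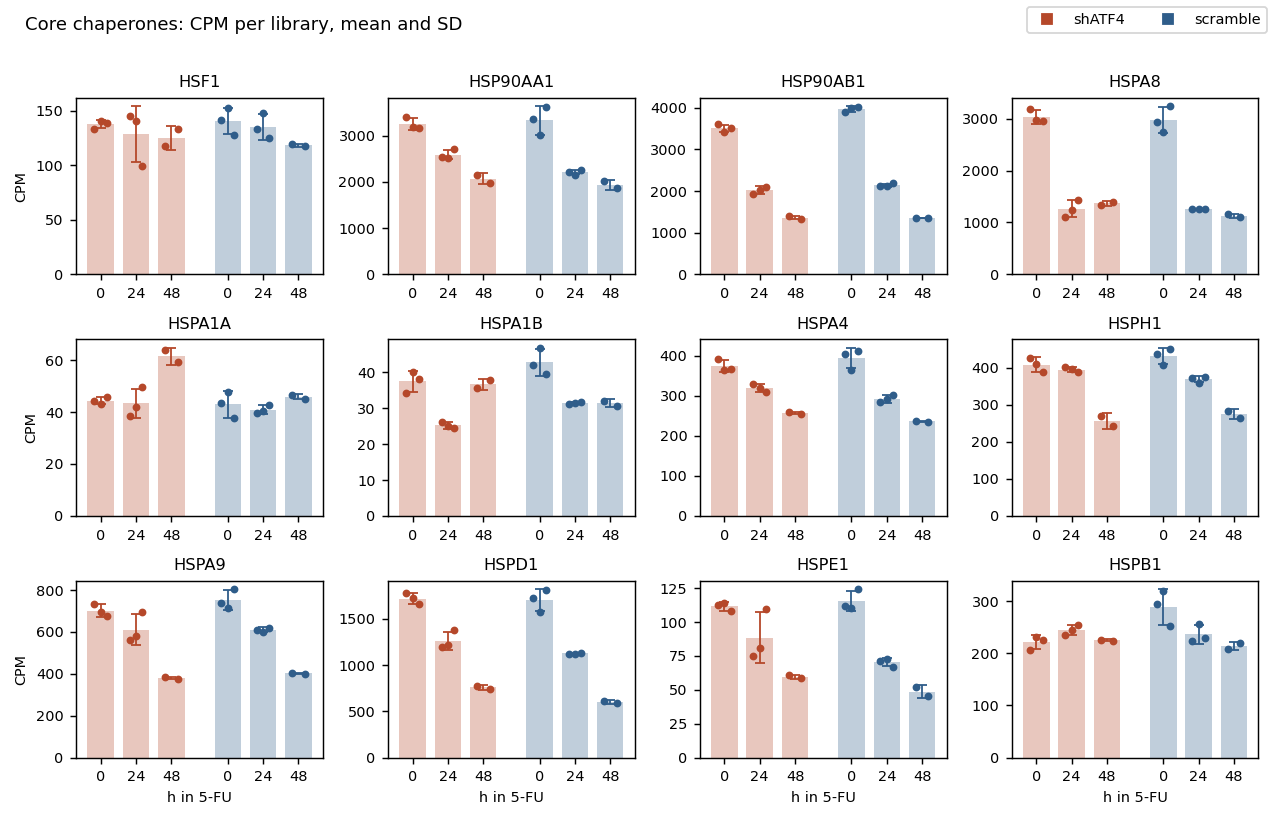
Levels of 12 core chaperone genes in CPM (linear axes from 0) against hours in 5-FU, with shATF4 cells on the left and scramble cells on the right of each panel; points are libraries, bars means and error bars SDs (n = 3, 3 and 2 per line). HSP90AB1, HSPA8, HSPD1 and HSPE1 step down after 5-FU in both lines, HSF1 has no call, and HSPA1A is highest in the shATF4 libraries at 48 h.

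Among cytosolic HSP70 genes the constitutive HSPA8 (chr11:123057489-123063230), which serves protein folding and clathrin uncoating in unstressed cells, fell early and far. HSPA8 had 3184, 2972 and 2949 CPM untreated, 1114, 1232 and 1440.3 CPM at 24 h and 1339 and 1396 CPM at 48 h in shATF4 cells. HSPA8 in scramble cells had 2937, 2753 and 3243 CPM untreated, 1259, 1256 and 1256 CPM at 24 h and 1159 and 1101 CPM at 48 h. All treated libraries were below all untreated ones. Its log2 changes were -1.27 ± 0.08 at 24 h and -1.15 ± 0.09 at 48 h in shATF4 cells, and -1.24 ± 0.08 and -1.40 ± 0.09 in scramble cells. The step from 24 h to 48 h did not pass the test in either line (log2 difference 0.12 ± 0.08 in shATF4 cells, adjusted p = 0.268, and -0.15 ± 0.08 in scramble cells, adjusted p = 0.165).

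HSPA2 (chr14:64535905-64546173), an HSP70 known best for its need in male germ cells, went the other way. HSPA2 had 30.6, 31.4 and 31 CPM untreated, 39.8, 38.7 and 35.1 CPM at 24 h and 112 and 125 CPM at 48 h in shATF4 cells. HSPA2 in scramble cells had 35.9, 35.2 and 35.8 CPM untreated, 55.7, 54.6 and 52.1 CPM at 24 h and 98.9 and 101 CPM at 48 h. The 3 states did not overlap in either line, and 48 h was the highest. The rise at 48 h was 3.82-fold in shATF4 cells (log2 change 1.93 ± 0.08) and 2.81-fold in scramble cells (1.49 ± 0.08). HSPA2 still gave at most 0.092 counts per HSPA8 count in any library, so the sum over the 6 cytosolic HSP70 genes remained lower after treatment, at 1553 and 1619 CPM at 48 h against 3295, 3089 and 3067 CPM untreated in shATF4 cells, and at 1338 and 1279.7 CPM against 3061, 2885 and 3359 CPM in scramble cells.

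The stress-inducible pair HSPA1A and HSPA1B, neighbours on chromosome 6 that encode the same protein, changed little beside HSPA8. HSPA1A had 44.3, 43.2 and 45.7 CPM untreated, 38.5, 41.9 and 49.6 CPM at 24 h and 63.8 and 59.2 CPM at 48 h in shATF4 cells. HSPA1A in scramble cells had 43.5, 47.8 and 37.6 CPM untreated, 39.6, 40.3 and 42.9 CPM at 24 h and 46.5 and 45.1 CPM at 48 h. HSPA1A was called in 1 of the 4 responses, at 48 h in shATF4 cells (log2 change 0.47 ± 0.10, adjusted p = 0.000518), where both libraries lay above all others. HSPA1B had 34.3, 40.1 and 38.1 CPM untreated, 26.2, 24.9 and 24.5 CPM at 24 h and 35.6 and 37.8 CPM at 48 h in shATF4 cells. HSPA1B in scramble cells had 42.1, 46.8 and 39.5 CPM untreated, 31.3, 31.5 and 31.6 CPM at 24 h and 32.1 and 30.6 CPM at 48 h. HSPA1B fell at 24 h in shATF4 cells (-0.57 ± 0.08, adjusted p = 1.47e-05), where its level at 48 h was back in the untreated range (-0.03 ± 0.09). In scramble cells it fell at both times (-0.44 ± 0.08 and -0.45 ± 0.09). Because the copies are near-identical, reads could have been split between them. With their counts summed, the log2 change was -0.26 ± 0.08 at 24 h and 0.26 ± 0.08 at 48 h in shATF4 cells (adjusted p = 0.0102 and 0.0109), and -0.24 ± 0.08 and -0.15 ± 0.09 in scramble cells (adjusted p = 0.0129 and 0.133), so the HSPA1B call at 48 h in scramble cells ended.

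The other pair of HSP70 genes was barely expressed. HSPA6, which is silent in unstressed cells and strongly induced by heat, was at 0 to 0.201 CPM in untreated libraries and 0 to 0.276 CPM at 24 h. At 48 h it stood at 0.877 and 0.6 CPM in shATF4 cells, or 16 and 11 reads, and at 0.292 and 0.176 CPM in scramble cells, or 5 and 3 reads. It passed the filter only through the shATF4 libraries at 48 h, so no fold change or test is given for it. HSPA1L, a testis form, stayed between 1.36 and 3.08 CPM and was lower at 48 h in both lines (-0.73 ± 0.28 and -0.78 ± 0.28). Its calls ended in 8 of 24 other settings in shATF4 cells and 4 of 24 in scramble cells (adjusted p up to 0.131 and 0.0887), among them each 48 h library of the line left out.

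Promoters were searched for heat shock elements, the repeats that HSF1 binds. RefSeq promoters on GRCh38.p14, read over the 250 bases before the RefSeq start of each gene, were matched for 59 of the 68 distinct symbols. These are not the same 59 as passed the filter. The RefSeq start can differ from the outer end of the gene as counted. For HSPA8 and DNAJB6 the bases searched lie inside the counted gene. A strict element of 3 units (the unit GAA in alternating orientation, each 2 bases from the next, on both strands) was in 3 of these 59, HSPA8, HSPA6 and DNAJB6, or 5.08%, against 0.439% of all 27305 promoters. A pair of units (GAANNTTC or TTCNNGAA, which every 3-unit match contains) was in 13 of 59, or 22%, against 11.7%. The stretches below run 5′ to 3′ on the strand of the gene, with the matched letters in capitals. The first 3 are shown as the members with a strict element, and the last pair because it shows the element shared by the near-identical copies.
HSPA8 (chr11:123062164-123062381, minus strand): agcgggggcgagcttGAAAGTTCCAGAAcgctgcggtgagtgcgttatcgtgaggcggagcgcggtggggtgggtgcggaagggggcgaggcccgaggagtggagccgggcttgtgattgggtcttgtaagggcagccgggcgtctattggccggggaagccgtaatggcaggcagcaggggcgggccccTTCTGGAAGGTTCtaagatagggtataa
HSPA6 (chr1:161524451-161524493, plus strand): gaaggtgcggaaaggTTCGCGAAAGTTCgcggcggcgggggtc
DNAJB6 (chr7:157336858-157336900, plus strand): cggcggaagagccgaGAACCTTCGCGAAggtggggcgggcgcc
HSPA1A (chr6:31815422-31815459, plus strand): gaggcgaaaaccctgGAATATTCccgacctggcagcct
HSPA1B (chr6:31827618-31827655, plus strand): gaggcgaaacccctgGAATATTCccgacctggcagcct

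HSPA8 holds the 3-unit match in 2 places, 230 and 55 bases before its RefSeq start. HSPA1A shares its match at chr6:31815437-31815444 with the divergent neighbour HSPA1L, whose RefSeq start lies 260 bp away. Of the members with a 3-unit match, HSPA8 was lower in all 4 responses and DNAJB6 was lower at 48 h in both lines (-0.28 ± 0.08 in shATF4 cells, adjusted p = 0.0826 with upper-quartile scaling, and -0.40 ± 0.08 in scramble cells). HSPA6 was too low to compare. A composite site for CHOP and ATF4 (TGATGNAA or TTNCATCA) was in 1 of the 59 promoters, that of HSPA4L, against 3.19% of all promoters. A match is a description of these letters and says nothing of binding.

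The HSP110 genes, whose proteins exchange the nucleotide of HSP70, were lower at 48 h in both lines. HSPA4 had 393, 365 and 367 CPM untreated, 329.5, 318 and 309.5 CPM at 24 h and 259 and 255 CPM at 48 h in shATF4 cells. HSPA4 in scramble cells had 405, 365 and 413 CPM untreated, 284, 292 and 303 CPM at 24 h and 237 and 235 CPM at 48 h. HSPA4 was called at both times in both lines, with log2 changes of -0.54 ± 0.07 in shATF4 cells and -0.74 ± 0.07 in scramble cells at 48 h. HSPH1, the heat-inducible HSP110, fell by the same order at 48 h (-0.67 ± 0.07 and -0.66 ± 0.07), and at 24 h it was called in scramble cells (-0.23 ± 0.06, adjusted p = 0.00583) but not in shATF4 cells (-0.05 ± 0.06, adjusted p = 0.581). HSPA4L had 57, 48.4 and 48.3 CPM untreated, 47.6, 46 and 44.2 CPM at 24 h and 41.3 and 33.2 CPM at 48 h in shATF4 cells. HSPA4L in scramble cells had 49.3, 46 and 53.1 CPM untreated, 46.8, 41.6 and 43.5 CPM at 24 h and 26.1 and 22.9 CPM at 48 h. HSPA4L, the third of the family, was not called at 24 h. At 48 h its libraries lay below all others of their line, and the scramble libraries were the lowest (-0.46 ± 0.11 in shATF4 cells and -1.01 ± 0.11 in scramble cells).

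The divergent HSP70 genes split. HSPA12A had 27.4, 30.1 and 31.8 CPM untreated, 57.7, 53.9 and 51.6 CPM at 24 h and 112 and 112 CPM at 48 h in shATF4 cells. HSPA12A in scramble cells had 32.1, 31.9 and 34.7 CPM untreated, 64.4, 71.3 and 64.4 CPM at 24 h and 89.3 and 90.8 CPM at 48 h. HSPA12A (chr10:116671192-116850236), a distant HSP70 relative, was higher in every treated library than in any untreated one, with log2 changes of 1.91 ± 0.08 in shATF4 cells and 1.45 ± 0.08 in scramble cells at 48 h. Its low neighbour in the family, HSPA12B, was called at 48 h, with 2.9 and 2.78 CPM in shATF4 cells, against 0.819, 1.11 and 0.787 CPM untreated, and 2.62 and 2.64 CPM in scramble cells, against 0.731, 0.76 and 1.34 CPM untreated. HSPA13, a microsomal HSP70, was called in no response and lay between 32.6 and 49.1 CPM.

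The entries named HSPA14, a ribosome-associated HSP70, disagreed with each other. ENSG00000187522 was lower at 48 h in both lines (-1.10 ± 0.11 in shATF4 cells and -0.88 ± 0.10 in scramble cells). ENSG00000284024 was not called at 48 h in either line (0.06 ± 0.09 and 0.16 ± 0.09), and at 24 h it was higher in scramble cells (0.49 ± 0.08, adjusted p = 3.73e-05) and not called in shATF4 cells (0.04 ± 0.08). They share 460 bp of exon on the same strand, 9.3% of the exons of ENSG00000284024 and 17.4% of those of ENSG00000187522, so the split of reads between them is uncertain.

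The 3 mitochondrial heat shock proteins HSPD1, HSPE1 and HSPA9 fell in all 4 responses. HSPD1 (HSP60) and HSPE1 (HSP10) form the chaperonin cage of the matrix, and their genes lie head to head on chromosome 2 with RefSeq starts 105 bp apart. HSPD1 had 1774, 1724 and 1655 CPM untreated, 1195, 1213 and 1376 CPM at 24 h and 777 and 741 CPM at 48 h in shATF4 cells. HSPD1 in scramble cells had 1719.9, 1573 and 1805 CPM untreated, 1119.7, 1122 and 1135 CPM at 24 h and 612 and 586 CPM at 48 h. HSPD1 stepped down with time without overlap between states, by 2.26-fold in shATF4 cells and 2.83-fold in scramble cells at 48 h (log2 changes -1.18 ± 0.07, adjusted p = 3.33e-11, and -1.50 ± 0.07, adjusted p = 7.15e-13). HSPE1 had 113, 114 and 108 CPM untreated, 74.8, 80.8 and 109.7 CPM at 24 h and 60.7 and 58.5 CPM at 48 h in shATF4 cells. HSPE1 in scramble cells had 112, 111 and 124 CPM untreated, 71.5, 73.1 and 67 CPM at 24 h and 51.9 and 45.6 CPM at 48 h. HSPE1 changed by -0.90 ± 0.12 in shATF4 cells and -1.24 ± 0.12 in scramble cells at 48 h. At 24 h in shATF4 cells the libraries ran up to the untreated range, with replicate 3, which stood apart, at the top (-0.33 ± 0.10, adjusted p = 0.0115, and 0.0511 and 0.0624 without replicate 1 or replicate 2 of that group). The genes share 281 bp of exon on opposite strands, 14.2% of HSPE1, and the labels do not say whether the counting used strand.

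HSPA9 (mortalin), the HSP70 of the matrix and of protein import was the last of the 3. HSPA9 had 735, 694 and 675 CPM untreated, 562, 579 and 694 CPM at 24 h and 385 and 377 CPM at 48 h in shATF4 cells. HSPA9 in scramble cells had 739, 714 and 803 CPM untreated, 611, 599 and 621 CPM at 24 h and 405 and 399.99 CPM at 48 h. Its log2 change at 48 h was -0.88 ± 0.08 in shATF4 cells and -0.90 ± 0.08 in scramble cells, with all libraries below the untreated ones. The smaller change at 24 h in shATF4 cells (-0.20 ± 0.07, adjusted p = 0.0291) was lost without replicate 1 or 2 of either group, with adjusted p-values from 0.0591 to 0.124, with upper-quartile scaling (0.0735) and with those groups fitted alone (0.0884). Replicate 3 at 24 h, which stood apart, was at the untreated level.

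Of 8 small heat shock protein genes 2 were expressed enough to test. HSPB1 had 206, 231 and 226 CPM untreated, 235, 245 and 254 CPM at 24 h and 226 and 224 CPM at 48 h in shATF4 cells. HSPB1 in scramble cells had 294, 319.5 and 252 CPM untreated, 224, 257 and 229 CPM at 24 h and 209 and 220.4 CPM at 48 h. HSPB1 (HSP27, chr7:76302544-76304295), which holds unfolded proteins until HSP70 can refold them, was lower after 5-FU in scramble cells (-0.29 ± 0.08 at 24 h and -0.43 ± 0.09 at 48 h, with adjusted p-values of 0.00569 and 0.000329). It was not called in shATF4 cells (0.15 ± 0.08, adjusted p = 0.142, and 0.03 ± 0.09, adjusted p = 0.819). HSPB11 had 10.8, 7.74 and 10.8 CPM untreated, 20.4, 20.2 and 28.5 CPM at 24 h and 40.9 and 36.3 CPM at 48 h in shATF4 cells. HSPB11 in scramble cells had 10.5, 10.3 and 12.8 CPM untreated, 24.7, 21.9 and 23 CPM at 24 h and 38.4 and 40.6 CPM at 48 h. HSPB11 (chr1:53916574-53945929), which despite its name is known as the intraflagellar transport protein IFT25, rose without overlap in all 4 responses, by 3.95-fold in shATF4 cells and 3.54-fold in scramble cells at 48 h (log2 changes 1.98 ± 0.15 and 1.82 ± 0.15).

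Of class A J-domain genes, the general partners of HSP70, 3 of 4 fell at 48 h in both lines. Over all genes 28.7% were lower at that time in shATF4 cells and 30% in scramble cells. The 3 were DNAJA1 (-0.46 ± 0.10 in shATF4 cells and -0.45 ± 0.10 in scramble cells), DNAJA2 (-0.31 ± 0.08 and -0.26 ± 0.08) and mitochondrial DNAJA3 (-0.51 ± 0.07 and -0.42 ± 0.07). The DNAJA2 change in scramble cells ended in 2 of 24 other settings, without 48 h replicate 2 and with upper-quartile scaling (adjusted p up to 0.225). DNAJA4 (chr15:78264086-78282196), the fourth, rose. DNAJA4 had 23.6, 23.4 and 26 CPM untreated, 40.4, 40.7 and 50.8 CPM at 24 h and 74 and 73.4 CPM at 48 h in shATF4 cells. DNAJA4 in scramble cells had 24.5, 23.8 and 24.2 CPM untreated, 41.5, 49.2 and 49.6 CPM at 24 h and 75.3 and 68.5 CPM at 48 h. Every treated library was above every untreated one, with log2 changes of 1.60 ± 0.10 in shATF4 cells and 1.58 ± 0.10 in scramble cells at 48 h.

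Class B held 8 tested genes, of which 4 rose and 3 fell at 48 h in each line. At that time 29.6% of all genes were higher and 28.7% lower in shATF4 cells, and 30.6% and 30% in scramble cells. DNAJB1 had 281, 277 and 278 CPM untreated, 227, 248 and 274 CPM at 24 h and 197 and 206 CPM at 48 h in shATF4 cells. DNAJB1 in scramble cells had 311, 294 and 303 CPM untreated, 208, 228 and 208 CPM at 24 h and 211 and 205 CPM at 48 h. DNAJB1 (HSP40), the main inducible partner of HSP70, fell at 48 h (-0.47 ± 0.08 in shATF4 cells and -0.54 ± 0.08 in scramble cells). At 24 h it was called in scramble cells (-0.49 ± 0.07, adjusted p = 4.87e-06) and not in shATF4 cells (-0.16 ± 0.07, adjusted p = 0.063), where replicate 3, which stood apart, lay just below the untreated libraries. DNAJB2 had 37.7, 39 and 41.3 CPM untreated, 65.5, 69.2 and 77.5 CPM at 24 h and 92.5 and 105 CPM at 48 h in shATF4 cells. DNAJB2 in scramble cells had 44.2, 42.6 and 36.9 CPM untreated, 62, 66.3 and 63.8 CPM at 24 h and 109 and 107 CPM at 48 h. DNAJB2 (chr2:219279267-219286900), which hands clients to the proteasome and is best known from neurons, rose in steps with log2 changes of 1.33 ± 0.09 and 1.40 ± 0.09. The other class B genes that rose at 48 h were DNAJB4 (0.44 ± 0.15 in shATF4 cells and 0.68 ± 0.15 in scramble cells), DNAJB5 (0.81 ± 0.18 and 0.78 ± 0.18) and the low DNAJB13, a radial spoke protein of cilia, which stayed at or under 1.64 CPM and passed the filter only through libraries at 48 h. DNAJB6, which prevents aggregation, and DNAJB12, of the ER membrane, were the others that fell. The DNAJB4 call in shATF4 cells ended without 48 h replicate 1 (adjusted p = 0.385). DNAJB14, of the ER membrane, was lower at 24 h (-0.47 ± 0.14 and -0.35 ± 0.14) and not called at 48 h (-0.06 ± 0.15 and -0.29 ± 0.15), and its calls at 24 h ended in 1 and 9 of 24 other settings (adjusted p up to 0.0642 and 0.215).

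Class C, whose members share little beyond the J domain, had 25 tested genes. Of these, 7 rose and 10 fell at 48 h in shATF4 cells, and 6 rose and 11 fell in scramble cells. The 7 include DNAJC5G, which passed the filter only through libraries at 48 h, so its call is a description and no difference between the lines. Over all genes tested 29.6% were higher and 28.7% lower at 48 h in shATF4 cells, and 30.6% and 30% in scramble cells. Lower in all 4 responses were DNAJC21, of ribosome assembly (-0.52 ± 0.08 in shATF4 cells and -0.87 ± 0.08 in scramble cells at 48 h), DNAJC11, of the mitochondrial cristae (-0.66 ± 0.07 and -0.76 ± 0.07), DNAJC19, of mitochondrial import (-0.60 ± 0.14 and -0.72 ± 0.15), and DNAJC7, which binds HSP70 and HSP90 (-0.77 ± 0.07 and -0.59 ± 0.07). The DNAJC19 call at 24 h in scramble cells ended in 5 of 24 other settings (adjusted p up to 0.0858), and that in shATF4 cells in 2 (up to 0.0945). The DNAJC11 call at 24 h in shATF4 cells ended in 5 (up to 0.0849), among them without untreated replicate 2 or 3 and without 24 h replicate 2. DNAJC11 shares 27.9% of its exons with THAP3 on the opposite strand.

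Other class C genes were lower at 48 h in both lines. DNAJC13, of endosomes, changed by -0.69 ± 0.09 in shATF4 cells and -0.36 ± 0.09 in scramble cells, DNAJC2, of the ribosome, by -0.63 ± 0.10 and -0.48 ± 0.10, and DNAJC8, of the spliceosome, by -0.42 ± 0.10 and -0.43 ± 0.10. DNAJC6 (auxilin), which uncoats clathrin vesicles, changed by -0.30 ± 0.08 and -0.43 ± 0.08, DNAJC14 by -0.46 ± 0.12 and -0.34 ± 0.12, and DNAJC16 by -0.40 ± 0.11 and -0.33 ± 0.11. DNAJC24, of diphthamide synthesis, was called in scramble cells at 48 h (-0.41 ± 0.15) and not in shATF4 cells (-0.32 ± 0.15, adjusted p = 0.0778). In scramble cells the call ended in 5 of 24 other settings for DNAJC24 (adjusted p up to 0.168, among them without untreated replicate 3 and without 48 h replicate 1), in 4 for DNAJC14 (up to 0.157, among them without untreated replicate 1 and without either 48 h library) and in 2 for DNAJC16 (up to 0.148, without 48 h replicate 2 and with upper-quartile scaling). In shATF4 cells it ended for DNAJC14 without 48 h replicate 2 (0.0665) and for DNAJC6 with upper-quartile scaling (0.0793). DNAJC5, the cysteine string protein of secretory vesicles, was a little higher at 48 h (0.24 ± 0.08 and 0.21 ± 0.08), and so was DNAJC18 (0.48 ± 0.13 and 0.37 ± 0.13). The DNAJC5 call in scramble cells ended in 7 of 24 other settings (adjusted p up to 0.218), among them each 48 h library of either line left out, and that in shATF4 cells ended without 48 h replicate 2 (0.128). The DNAJC18 call in scramble cells ended in 4 (up to 0.106), among them each 48 h library of that line left out.

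Class C genes higher in all 4 responses were DNAJC22, DNAJC1, DNAJC12 and DNAJC28. DNAJC22 had 42, 41.5 and 43.1 CPM untreated, 79.6, 78.8 and 72.1 CPM at 24 h and 93.3 and 83 CPM at 48 h in shATF4 cells. DNAJC22 in scramble cells had 44, 45.5 and 44.7 CPM untreated, 69.9, 68.8 and 69 CPM at 24 h and 86.8 and 83.3 CPM at 48 h. DNAJC22, whose fly counterpart acts in endocytosis, did not overlap between treated and untreated libraries (1.06 ± 0.08 in shATF4 cells and 0.93 ± 0.08 in scramble cells at 48 h). DNAJC1, of the ER membrane, changed by 0.38 ± 0.09 and 0.51 ± 0.09, and DNAJC12, a partner of the aromatic amino acid hydroxylases, by 0.41 ± 0.12 and 0.65 ± 0.12. DNAJC28 stayed at or under 1.62 CPM, and its change at 24 h in shATF4 cells (0.98 ± 0.39, adjusted p = 0.0473) ended in 16 of 24 other settings (up to 0.25), and that at 48 h in shATF4 cells in 4 (up to 0.268), among them without 48 h replicate 2. The DNAJC12 call at 24 h in shATF4 cells ended without 24 h replicate 3, which stood apart (0.057). DNAJC9, a cochaperone for histones, was called in none, with levels between 87 and 109 CPM, with log2 changes from -0.03 to 0.07.

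**Figure D3:**
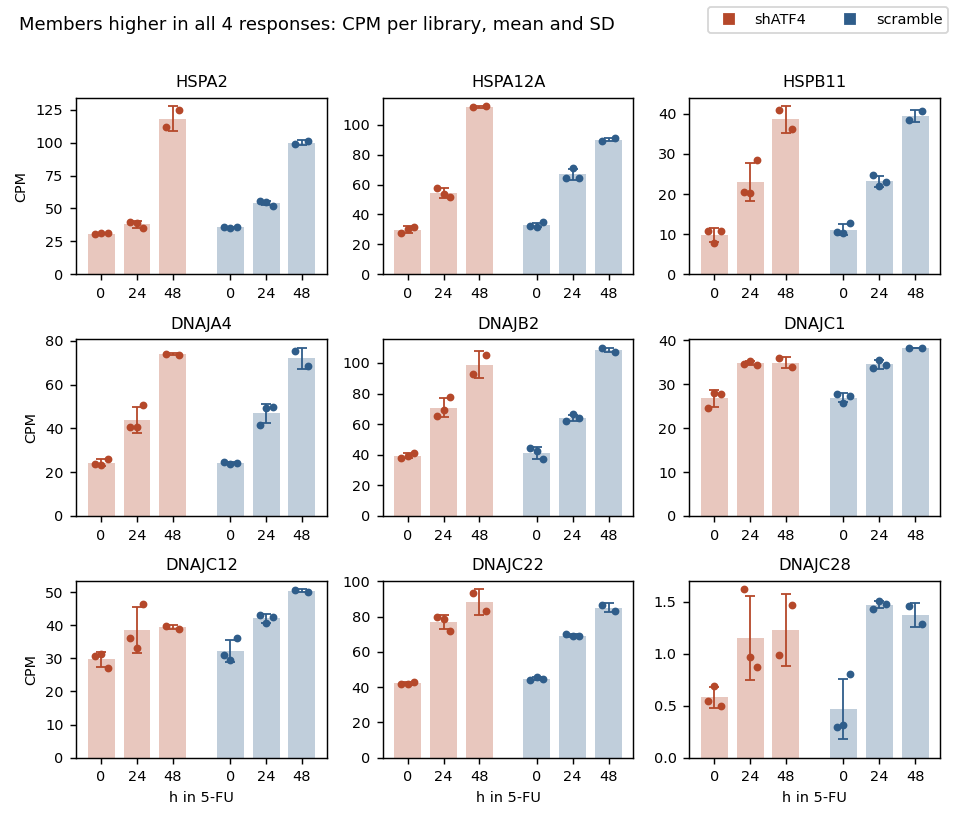
Levels in CPM (linear axes from 0) of the 9 members higher in all 4 responses against hours in 5-FU, with shATF4 cells on the left and scramble cells on the right of each panel; points are libraries, bars means and error bars SDs (n = 3, 3 and 2 per line). HSPA2, HSPA12A, HSPB11, DNAJA4 and DNAJB2 go on rising from 24 h to 48 h, and DNAJC28 stays under 2 CPM.

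Set against 24 h, the libraries at 48 h had 17 of 59 members higher and 23 lower in shATF4 cells, and 11 higher and 19 lower in scramble cells. Over all genes 48.2% were called in shATF4 cells, 23.7% higher and 24.5% lower, and 38.3% in scramble cells, 18.8% higher and 19.5% lower. HSPD1 was among the genes that went on falling (-0.73 ± 0.07 in shATF4 cells and -0.91 ± 0.07 in scramble cells), as were HSP90AB1 (-0.56 ± 0.06 and -0.66 ± 0.06) and HSPA9 (-0.68 ± 0.08 and -0.60 ± 0.08). The HSPA14 entry ENSG00000187522 was lower at 48 h (-1.26 ± 0.11 and -0.79 ± 0.10). HSPA2 was higher (1.65 ± 0.08 and 0.89 ± 0.08), and so was HSPA12B (2.31 ± 0.34 and 1.69 ± 0.32). HSPA1A and HSPA1B rose between the times in shATF4 cells (0.50 ± 0.10, adjusted p = 0.000393, and 0.54 ± 0.09, adjusted p = 6.9e-05) and were not called in scramble cells (adjusted p = 0.228 and 0.979).

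Genes were also placed in classes by mean FPKM, with bounds chosen after the data had been seen, and the shares lower in 5-FU against untreated cells are given as a description. Of the 6 members at 100 FPKM or more, 4 were lower at 24 h in shATF4 cells (66.7%) and 5 in scramble cells (83.3%), where 43.5% and 69.9% of all 356 genes of that level were lower. At 48 h 5 of these members were lower in shATF4 cells (83.3%) and 6 in scramble cells (100%), where 76.1% and 79.8% of all genes of that level were. Between 10 and 100 FPKM, 7 of 24 members were lower at 24 h in shATF4 cells (29.2%) and 12 in scramble cells (50%), against 31% and 38.9% of all genes. At 48 h 14 were lower in shATF4 cells (58.3%) and 15 in scramble cells (62.5%), against 49.9% and 54% of all genes. Between 1 and 10 FPKM, 5 of 21 members were lower at 24 h in shATF4 cells (23.8%) and 3 in scramble cells (14.3%), against 23.7% and 21.2% of all genes. At 48 h 7 were lower in shATF4 cells (33.3%) and 8 in scramble cells (38.1%), against 28.6% and 29.2%. Below 1 FPKM no share is given, since 3 of the 8 members there passed the filter only through libraries at 48 h.

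Lists of chaperone partners outside the set were counted in the same way, against 21.2% and 28.7% of all genes lower at 24 h and 48 h in shATF4 cells and 22.2% and 30% in scramble cells. Of 8 subunits of TRiC, the cytosolic chaperonin for actin and tubulin, 6 were lower at 24 h and 8 at 48 h in shATF4 cells, and 8 at both times in scramble cells, led by CCT6A (-1.26 ± 0.07 and -1.20 ± 0.07 at 48 h). Of 24 tested cochaperones of HSP70 and HSP90, 8 and 17 were lower in shATF4 cells at 24 h and 48 h (33.3% and 70.8%) and 3 and 1 higher, and 12 and 18 were lower in scramble cells (50% and 75%) and 0 and 2 higher. FKBP4, an HSP90 cochaperone of steroid receptors, changed by -0.82 ± 0.07 and -0.94 ± 0.07 at 48 h, STIP1, which links HSP70 to HSP90, by -0.77 ± 0.06 and -0.81 ± 0.06, and HSPBP1, an exchange factor, by -0.80 ± 0.11 and -1.11 ± 0.11. The HSP70 exchange factor BAG3, itself an HSF1 target, was higher at 48 h (0.80 ± 0.10 and 0.58 ± 0.10).

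Of 6 prefoldin subunits, which pass chains to TRiC, 1 and 3 were lower in shATF4 cells at 24 h and 48 h (16.7% and 50%), and 2 and 4 in scramble cells (33.3% and 66.7%), with none higher; with so few genes, the shares at 24 h are near the background. Of 10 mitochondrial partners and proteases, 2 and 7 were lower in shATF4 cells (20% and 70%) and 4 and 0 higher, and 3 and 7 were lower in scramble cells (30% and 70%) and none higher. At 24 h those lower shares, too, are near the background. The matrix protease LONP1 (-1.99 ± 0.10 and -2.09 ± 0.10) and the mitochondrial HSP90, TRAP1 (-1.11 ± 0.07 and -1.38 ± 0.07), changed most among those called at 48 h. Of 13 ER chaperones outside the set, 7 and 11 were lower in shATF4 cells (53.8% and 84.6%) and 9 and 12 in scramble cells (69.2% and 92.3%), with HSPA5 (BiP) at -1.15 ± 0.06 and -1.26 ± 0.06 and 1 gene, DNAJB9, higher at 48 h (0.92 ± 0.20 and 1.14 ± 0.20). Of 3 tested heat shock factors and binding proteins HSF4, best known from the lens, was higher in all 4 responses (1.73 ± 0.19 and 1.89 ± 0.19 at 48 h), and HSF2 was lower at 48 h (-0.37 ± 0.12 and -0.46 ± 0.12). These lists were chosen with earlier results of these data known, so their direction is no independent evidence.

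Few members differed between the lines. Untreated, 1 of 59 was called, HSPB1, which was lower, where 2.92% of all genes were called and 1.84% were lower. At 24 h 5 members were higher and 6 lower in shATF4 than in scramble cells, 18.6% of the 59, against 20.4% of all genes called, 10.5% higher and 9.89% lower. At 48 h 4 were higher and 2 lower, 10.2%, against 9.45% of all genes, 3.92% higher and 5.53% lower. These shares are close to the background. Over the 3 states 15 members were called at least once and 3 more than once.

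**Figure D4:**
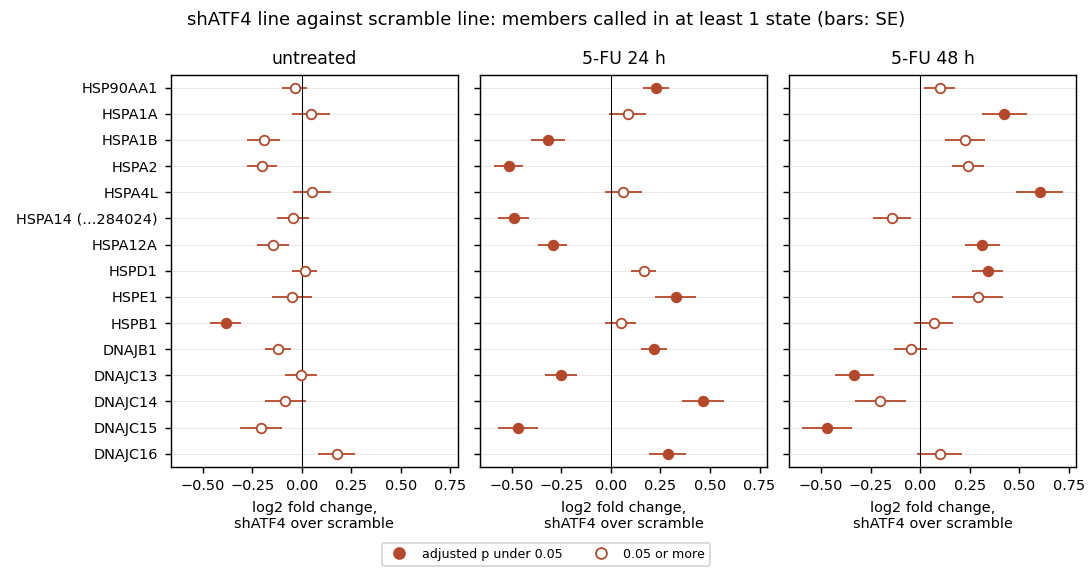
Log2 fold change, shATF4 over scramble, of the 15 members called in at least 1 of 3 states, with standard errors as bars and open symbols where the adjusted p was 0.05 or more. DNAJC13 and DNAJC15 are lower at both times, HSPA12A is lower at 24 h and higher at 48 h, and HSPB1 is called in untreated cells.

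HSPB1 in untreated cells averaged 221 ± 13.3 CPM in shATF4 cells and 289 ± 34.3 CPM in scramble cells (SD, n = 3 each), a log2 difference of -0.38 ± 0.08 (adjusted p = 0.00733), with no overlap. Without shATF4 replicate 1 the call ended (adjusted p = 0.0601). After 5-FU the difference did not pass (0.05 ± 0.08 at 24 h and 0.07 ± 0.10 at 48 h). The response at 24 h differed between the lines, with a log2 difference of 0.43 ± 0.11 (adjusted p = 0.0459), a call that ended in 17 of 24 other settings (adjusted p up to 0.152), and at 48 h the difference was 0.45 ± 0.13 (adjusted p = 0.0564).

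At 24 h HSPA2 was lower in shATF4 cells, by a log2 difference of -0.52 ± 0.07 (adjusted p = 5.58e-05), and so was HSPA12A (-0.29 ± 0.07, adjusted p = 0.0082). At 48 h HSPA12A was higher in shATF4 cells (0.31 ± 0.09, adjusted p = 0.0263, lost in 5 of 24 other settings with values up to 0.171), and HSPA2 did not pass (0.24 ± 0.08, adjusted p = 0.071). The interaction at 48 h, which subtracts the scramble response from the shATF4 response, was called for these 2 members and no other, 0.44 ± 0.11 for HSPA2 (adjusted p = 0.0349) and 0.46 ± 0.12 for HSPA12A (adjusted p = 0.0407), where 2.74% of all genes were called, 1.3% higher and 1.44% lower. These calls ended in 10 and 12 of 24 other settings (adjusted p up to 0.199 and 0.167). For both genes the untreated shATF4 libraries already lay below the untreated scramble libraries, without a call, and this enters the interaction. At 24 h it was called for HSPB1 and for the HSPA14 entry ENSG00000284024 (-0.45 ± 0.11, adjusted p = 0.0407), where 2.13% of all genes were, 0.947% higher and 1.18% lower, and the HSPA14 call ended in 12 of 24 (up to 0.105).

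The other members called at 24 h included HSP90AA1 (0.23 ± 0.06, adjusted p = 0.0171), HSPE1 (0.33 ± 0.10, adjusted p = 0.0294) and DNAJB1 (0.22 ± 0.07, adjusted p = 0.0274), all higher in shATF4 cells. Without replicate 3 of the shATF4 group the HSPE1 difference was 0.14 (adjusted p = 0.205) and the DNAJB1 difference 0.14 (adjusted p = 0.0982). The DNAJB1 call ended in 9 of 24 other settings in all and the HSPE1 call in 6. The HSP90AA1 call ended without any 1 of the 3 scramble 24 h libraries (adjusted p from 0.056 to 0.0876). HSPA1B was lower (-0.32 ± 0.08), a call that ended with HSPA1A and HSPA1B summed (-0.08 ± 0.08, adjusted p = 0.516).

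DNAJC15, an inhibitor of respiratory complex I, was lower in shATF4 cells at both times. It had 24.8, 25.1 and 30.5 CPM in shATF4 cells at 24 h, against 36.1, 32.7 and 42.6 CPM in scramble cells, and 24.3 and 22.6 against 34.1 and 30.8 CPM at 48 h. The groups did not overlap, and the log2 differences were -0.47 ± 0.10 (adjusted p = 0.00325) and -0.47 ± 0.13 (adjusted p = 0.022). Untreated, DNAJC15 already lay lower in shATF4 cells, at 24.8, 25.4 and 24.6 CPM against 29.7, 26.4 and 30.3 CPM. Those libraries did not overlap either, and the difference was not called. DNAJC13, an endosomal protein, had 74, 60.9 and 59.7 CPM in shATF4 cells at 24 h, against 78.1, 75 and 78.5 CPM in scramble cells, and 53.4 and 52 against 68.7 and 64 CPM at 48 h (-0.25 ± 0.08, adjusted p = 0.0321, and -0.33 ± 0.10, adjusted p = 0.0381). The DNAJC13 call at 24 h ended in 6 of 24 other settings (up to 0.127). Both calls at 48 h ended without any 1 of the 4 libraries at 48 h (adjusted p up to 0.213 for DNAJC15 and 0.297 for DNAJC13). DNAJC14 (0.46 ± 0.11) and DNAJC16 (0.29 ± 0.09, lost in 11 of 24 other settings with adjusted p up to 0.181) were higher at 24 h. DNAJC14 shares 21.9% of its exons with ORMDL2 and 12.9% with TMEM198B on the opposite strand, and 23.2% with AC023055.1 on its own strand.

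At 48 h HSPA4L showed the largest called difference between the lines, 0.60 ± 0.12 (adjusted p = 0.0025), higher in shATF4 cells without overlap. HSPA1A (0.42 ± 0.11, adjusted p = 0.0197) and HSPD1 (0.34 ± 0.08, adjusted p = 0.00721) were higher too. Without scramble 48 h replicate 2 the adjusted p was 0.0635 for HSPA4L, 0.137 for HSPA1A and 0.0866 for HSPD1, and no member was called, as was so without shATF4 48 h replicate 1. Without shATF4 24 h replicate 3, which stood apart, 12 members were called, given without the share over all genes in that setting. For HSF1, HSP90AB1 and HSPA8 the difference between the lines passed the test in no state, with log2 differences at 48 h of 0.08 ± 0.13, 0.01 ± 0.06 and 0.27 ± 0.09. For HSPA8 the adjusted p was 0.0667, and the unadjusted 95% interval ran from 0.07 to 0.48.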

How the data were processed

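RNA of 16 SW620 libraries was selected with oligo-dT and sequenced. The authors deposited raw read counts per gene, made with featureCounts 1.5.0-p3 on GRCh38 per the submitters' processing notes. The authors also deposited FPKM values, used here only to compare levels between genes. Neither aligner nor annotation release nor strand use in counting was stated in the sources. In the GENCODE v29 annotation 35 of the 69 members share exon bases with another gene, among them DNAJC9, DNAJC17 and DNAJC30. The effect of this on their counts was not tested.

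Counts were tested with edgeR 4.0.16 (R 4.3.3): filterByExpr, TMM scaling, a mean for each of 6 groups fitted over all 16 libraries (10 residual degrees of freedom), the quasi-likelihood F test, and Benjamini-Hochberg adjustment over 17309 genes in each of 11 comparisons, with calls at an adjusted p under 0.05. The filter kept 99.9% of counts. CPM use the TMM-scaled library size. The common biological coefficient of variation was 0.0847. The tests were first tried on simulated counts.

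The rule for named members took 14 core genes, the 5 called members with the largest rise and fall in each 5-FU response and 3 of each kind in the other comparisons (mean of at least 1 CPM), every called member where 5 or fewer were called, and up to 2 genes per outside list and comparison by smallest p-value. Other members are named by role, and BAG3 and DNAJB9 after their values were seen. The members and lists were chosen with earlier results of these data known. Alternatives were DESeq2 1.42.0, other scalings and filters, a replicate block, the compared groups alone, and libraries left out. Replicate numbers were checked for pairing by correlating the deviations of same-numbered libraries from their group means (-0.21 to 0.21). Not every pair was above 0.1, so the numbers were not taken to pair libraries. This check cannot settle whether they do. Between the lines at 48 h, with 2 libraries per group, both pairs give the same value by construction. No libraries were duplicates. The 35 columns of the authors' own comparisons were not used.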

Additional observations from a re-analysis of the deposited data

Results flagged for a closer look

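A test of the difference in 5-FU response between shATF4 and scramble cells picked out 4 members (edgeR's quasi-likelihood test, shATF4 response minus scramble response). At 24 h the difference was 0.43 on the log2 scale for HSPB1 (adjusted p = 0.0459) and -0.45 for the HSPA14 entry ENSG00000284024 (adjusted p = 0.0407). At 48 h it was 0.46 for HSPA12A (adjusted p = 0.0407) and 0.44 for HSPA2 (adjusted p = 0.0349). HSPB1 was lower after 5-FU in scramble cells and not called in shATF4 cells, and the lines differed before treatment. HSPA2 and HSPA12A were higher in both lines, with the larger rise at 48 h in shATF4 cells. Untreated, both lay lower in shATF4 than in scramble cells without a call. HSPA2 had 30.6 to 31.4 against 35.2 to 35.9 CPM, and HSPA12A had 27.4 to 31.8 against 31.9 to 34.7 CPM. Untreated libraries of the lines did not overlap for 19.3% of all genes tested. Of 24 other settings, the call ended in 17 for HSPB1, 12 for ENSG00000284024, 12 for HSPA12A and 10 for HSPA2.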

How the results depend on the processing

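Of 238 calls of members over the 11 comparisons, 170 were lost in none of the up to 24 other settings in which each was tested. None of the 112 calls of members named by the rule reversed, and 91 of them were the same in every setting. Counts of members called between the lines moved more than those of the responses. The counts under other settings are given without the share over all genes in the same setting. They describe how the calls moved and are not set against a background. Untreated, where 1 was called, there were 2 with DESeq2, with median-of-ratios scaling, with the replicate block, with the compared groups alone and without both libraries that stood apart. At 24 h, where 11 were called, the compared groups alone gave 7. At 48 h, where 6 were called, they gave 11, and leaving out both apart libraries gave 12. The difference in the 24 h response, called for 2 members, was called for 4 with DESeq2, 1 with median-of-ratios scaling, 1 with upper-quartile scaling, 1 with a mean of at least 1 CPM, 0 with the compared groups alone and 4 without both apart libraries. The difference in the 48 h response, called for 2, was called for 5 with DESeq2 and 9 without both apart libraries. The cause was not tested. At an unadjusted p under 0.05, edgeR gave 12 members for the 24 h difference, or 20.3%, against 18.6% of all genes. For the 48 h difference it gave 10, or 16.9%, against 15.6% of all genes. Both shares are near the background.

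With single libraries left out, the lowest and highest numbers of members called were 0 to 2 between untreated lines, 6 to 12 between lines at 24 h, 0 to 12 between lines at 48 h, 0 to 7 for the difference in the 24 h response and 0 to 6 for that in the 48 h response. For the 4 responses they were 19 to 27 and 41 to 46 in shATF4 cells at 24 h and 48 h, and 28 to 32 and 39 to 48 in scramble cells. Where 1 library was left at 48 h, it was assumed to vary like the other groups.

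Under the replicate block, whose numbers were not taken to pair the libraries, the members called were 2 between untreated lines, 11 at 24 h and 9 at 48 h. There were 4 for the difference in the 24 h response and 4 for that in the 48 h response, and 24, 44, 31 and 46 in the 4 responses.

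Upper-quartile scaling moved the median of all genes to 0.16 in shATF4 cells and 0.17 in scramble cells at 48 h, and the share of all calls that were higher to 61.2% and 61.4%, against 50.7% and 50.5%. Relative to it 20 members were higher and 24 lower in shATF4 cells, and 18 higher and 25 lower in scramble cells.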
